A study of Homo sapiens with 3 samples.

Results

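The Wnt and β-catenin pathway genes were 47 genes chosen by name, from ligands and receptors to nuclear factors and 1 gene grouped as a target, out of 61193 annotated genes of which 19926 were protein-coding. Their messenger RNA was measured in HEK293T cells, an established line from human embryonic kidney that carries the SV40 large T antigen. No rule on measured values set the choice, but it was made with earlier results of these data known. The cells were grown in DMEM with fetal bovine serum and penicillin-streptomycin and taken a day after seeding without further treatment. The 3 libraries came from independent cultures of this 1 line under 1 condition, so there was no control group, no comparison between conditions and no p-value. The RNA-seq accompanied maps of i-motifs (iMs) and G-quadruplexes (G4s), DNA structures of C-rich and G-rich strands, and it served to place genes in categories of expression.

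Wnt proteins are lipid-modified signals that bind Frizzled receptors together with LRP co-receptors. Without a signal, a destruction complex of Axin, APC, casein kinase 1 and GSK3 marks β-catenin for degradation. When receptors are engaged, Dishevelled proteins recruit Axin to the membrane, β-catenin accumulates, enters the nucleus and joins TCF/LEF factors, displacing TLE corepressors and opening target genes such as CCND1. HEK293T cells respond to added Wnt proteins and are widely used for reporter assays of the pathway.

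Levels are given as TPM, in which the count of each transcript is divided by its length and scaled to 1000000 per library, summed per gene. Gene positions are those of GENCODE on GRCh38. The libraries held 7019253, 6262175 and 8521624 counts in replicates 1, 2 and 3, so that a count of 0 allows up to 3 counts, or 0.352 to 0.479 CPM (counts scaled to 1000000 per library with no division by length), for counting error only. Replicate 3 stood apart: mitochondrial genes held 44.2% of its TPM, against 22.8% and 15.4% in replicates 1 and 2, so nuclear genes together took a smaller part of its total. Of 7 markers linked to HEK293T, 4 had at least 1 TPM, led by LIN28B with 46.0, 52.3 and 24.1 TPM, while KRT18 and NEFM had 0 counts and VIM had 0, 6 and 5. Every leukocyte, adipocyte and erythroid marker of the list had 0 counts, and the 3 hepatocyte markers held at most 3 counts in a library. Among the markers of these 4 cell types only LYZ had a 3′ end that lay in 1 listed transcript. The ends of VIM, KRT18 and NEFM were shared by several. A count of 0 at a shared end is treated below as not detectable, so these markers cannot exclude other cell types. Among fibroblast markers, COL1A1 had 24.5 to 25.2 TPM while COL1A2 had 0 counts and DCN at most 1. The source of the COL1A1 reads was not tested.

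Pathway genes were detected at every step from ligand to target, with a marked unevenness within gene families. A mean of at least 1 TPM was reached by 28 of 47 members, beside 21.7% of all genes and 38.2% of protein-coding genes. The same number, 28, had more than 3 counts in every replicate, beside 19.8% of all genes and 39.5% of protein-coding genes. The sets differed by TCF7L2, which reached 1 TPM on few counts, and CTNNB1, which did not. No count at all was assigned to 11 members in any replicate (36.5% of protein-coding genes had none), and 8 others had counts but not above 3 in every library. The median over all 47 members was 2.82 TPM, and over the 28 with at least 1 TPM it was 17.9 TPM, beside 6.55 TPM over all genes and 10.5 TPM over protein-coding genes that reached 1 TPM. Genes at or above the third quartile of all genes with at least 1 TPM (24.1 TPM) were put in the high category, those at or below the first quartile (2.40 TPM) in the low category. By this rule 13 members were high, 11 medium, 4 low and 19 not expressed, and 41 had the same category in each replicate taken alone. High genes made up 46.4% of the 28 expressed members and 32.8% of expressed protein-coding genes. The members were picked as known pathway genes, so these shares describe them and were not tested.

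**Figure D1:**
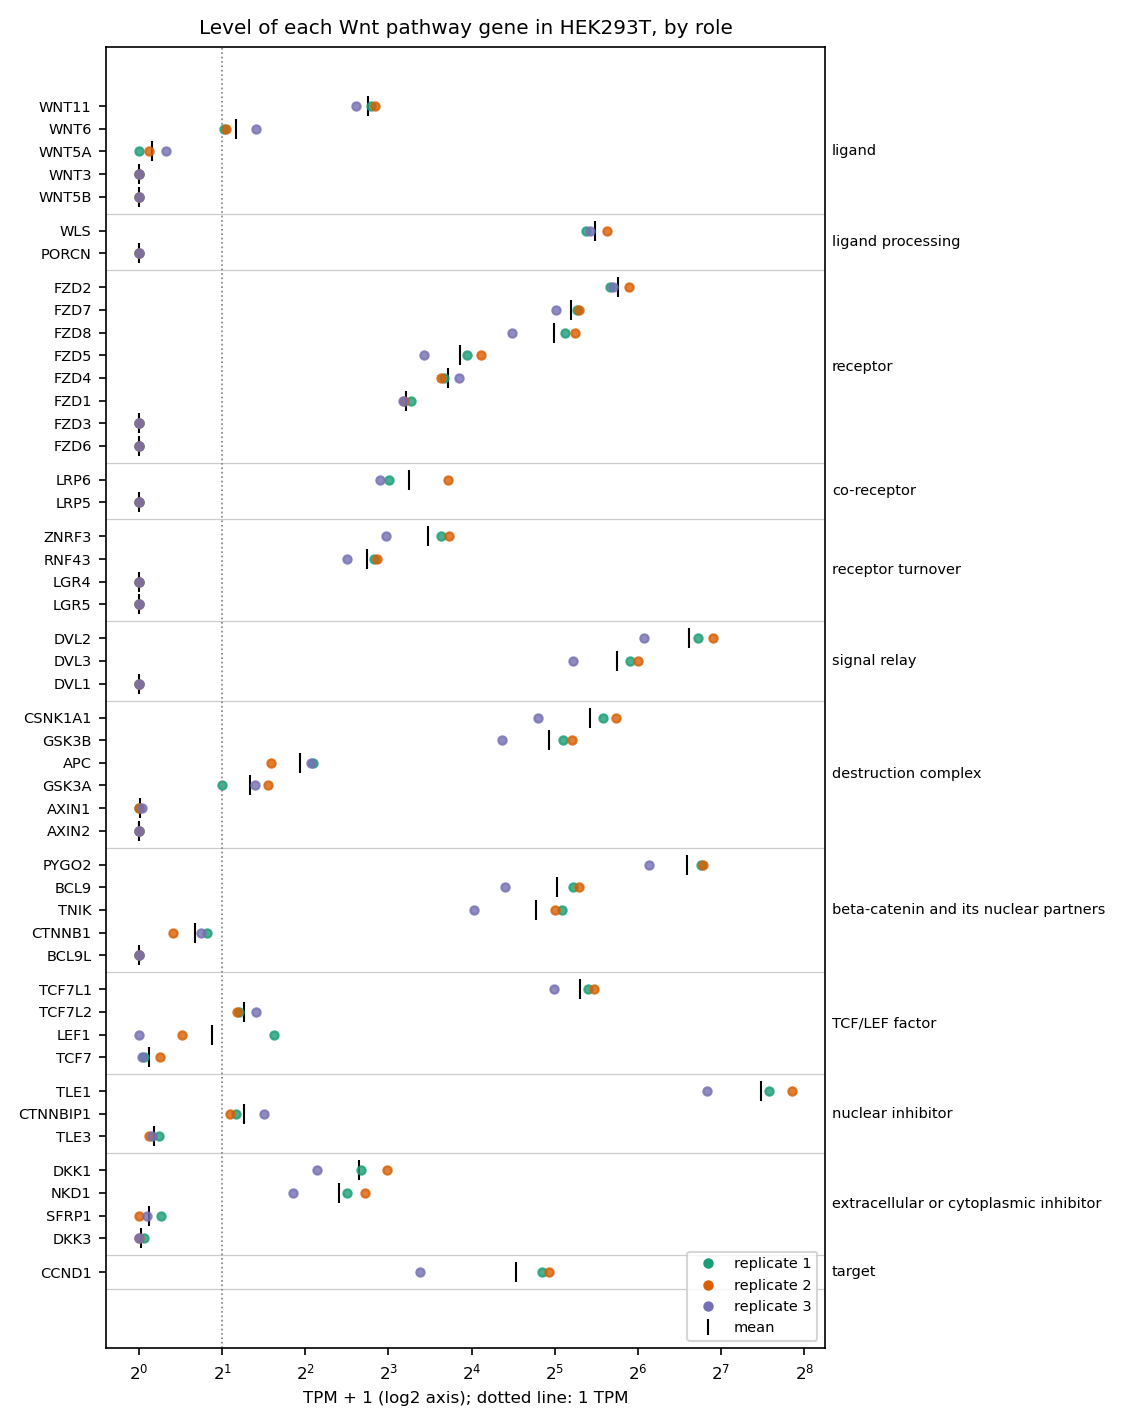
Each row is 1 of the 47 genes, grouped by role, with points for replicates 1 to 3 and a black tick for their mean, on a log2 axis of TPM + 1. TLE1 lies farthest to the right with a mean of 178 TPM, replicate 3 lies leftmost for 20 of the 25 genes that had 10 or more counts in each library, and genes of 0 TPM lie on the left edge next to close relatives with high levels. Of the genes with 0 TPM in every replicate, all but WNT3 and BCL9L have a 3′ end shared by several listed transcripts.

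Together the members held 928, 1027 and 624 TPM in replicates 1 to 3 (859 ± 209.9 TPM, SD, n = 3), which was 0.0859% of all TPM. The leading 5, TLE1, DVL2, PYGO2, FZD2 and DVL3, held 55.3% of that sum. They are a corepressor, a pair of signal relays, a nuclear coactivator and a receptor, so the highest levels were spread over the pathway and not confined to 1 step.

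Whether a member was counted moved with the annotation of its 3′ end. The libraries were made from the 3′ ends of messenger RNA, and the deposited tables count reads per transcript. For 21 members the last 300 exonic bases of the reference transcript lay in 1 listed transcript only, and 19 of these (90.5%) had more than 3 counts in every replicate, beside 56.4% of protein-coding genes with such an end. The exceptions were WNT3 and BCL9L, with 0 counts. For 22 members the end was shared by several listed transcripts, and 6 of these (27.3%) had more than 3 counts, beside 26.1% of protein-coding genes of that kind. The 6 were LRP6, RNF43, GSK3A, GSK3B, CSNK1A1 and CTNNB1. The remaining 4, WLS, DVL2, APC and DKK3, had ends that were shared in part, and all but DKK3 passed. How reads that fit several transcripts were treated is not given in the sources used here, and its part in the missing counts was not tested. A count of 0 for a gene with a shared end is therefore given as not detectable in these tables, not as absence of its messenger RNA.

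**Figure D2:**
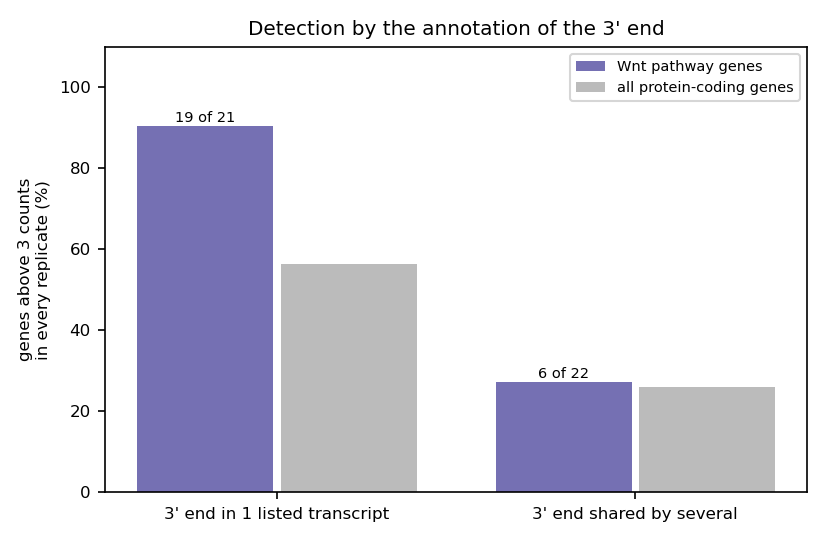
Bars show the percentage of genes with more than 3 counts in every replicate, starting at 0, for Wnt pathway genes (purple) and all protein-coding genes (grey), split by whether the 3′ end lies in 1 listed transcript or is shared by several. Among pathway genes 19 of 21 with an unshared end passed against 6 of 22 with a shared end, and the grey bars stand at 56.4% and 26.1%.

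The promoters are shown because the study concerns C-rich and G-rich DNA at transcription starts. RefSeq windows of 250 bases before and 50 after a start (GRCh38.p14) were at hand for 33 of the 47 members, 46 windows in all, and were searched for 4 tracts of at least 3 C or G with loops of up to 7 bases, on the gene strand. A loop could be empty, so an unbroken stretch of C or G could count as several tracts. Such a run was found in 26 of 46 windows (56.5%), in 22 of the 33 genes, beside 26.8% of all windows and 32.6% of windows of protein-coding genes. C runs, the pattern of a putative iM on the gene strand, were in 39.1% of member windows beside 17.0% for protein-coding genes. G runs, the pattern of a putative G4, were in 23.9% beside 19.2%. Member windows also had a higher median GC content, 65.7% beside 62.3% for protein-coding genes, and the part of GC content in the run counts was not tested. A run is a pattern of letters, not evidence that a structure folds. No window was used here for DKK3, SFRP1, AXIN2, FZD7, NKD1, CCND1, FZD3, ZNRF3, LRP6, WNT11, LGR5, FZD6, BCL9L and FZD2.

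The sequences below are the bases before the start for the nuclear inhibitors CTNNBIP1 and TLE1, the leading TCF factor TCF7L1, the receptor FZD4 and the secreted inhibitor DKK1, chosen after the search to show runs in genes of different level and role. They are written 5′ to 3′ on the gene strand, with the C or G runs in capitals. They lie at chr1:9910337-9910519 (minus strand, CTNNBIP1), chr9:81689548-81689797 (minus strand, TLE1), chr2:85133142-85133391 (plus strand, TCF7L1), chr11:86955396-86955645 (minus strand, FZD4) and chr10:52314031-52314280 (plus strand, DKK1). For CTNNBIP1 the last 67 bases before the RefSeq start are left out because GENCODE places them inside the gene.
CTNNBIP1: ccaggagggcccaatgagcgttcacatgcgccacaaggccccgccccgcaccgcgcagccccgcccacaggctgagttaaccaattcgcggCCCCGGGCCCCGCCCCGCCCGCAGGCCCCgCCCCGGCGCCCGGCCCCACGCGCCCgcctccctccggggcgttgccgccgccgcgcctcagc
TLE1: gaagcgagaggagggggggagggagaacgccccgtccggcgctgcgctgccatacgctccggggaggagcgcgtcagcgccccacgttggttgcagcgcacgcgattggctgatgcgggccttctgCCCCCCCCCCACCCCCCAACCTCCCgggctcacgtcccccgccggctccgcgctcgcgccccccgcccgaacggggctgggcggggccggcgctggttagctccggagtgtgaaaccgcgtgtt
TCF7L1: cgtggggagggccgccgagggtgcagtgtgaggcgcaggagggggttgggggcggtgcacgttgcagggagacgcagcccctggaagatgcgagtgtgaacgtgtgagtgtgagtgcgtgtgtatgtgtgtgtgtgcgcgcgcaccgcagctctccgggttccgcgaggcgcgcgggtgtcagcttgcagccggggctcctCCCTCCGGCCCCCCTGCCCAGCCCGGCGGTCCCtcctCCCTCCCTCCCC
FZD4: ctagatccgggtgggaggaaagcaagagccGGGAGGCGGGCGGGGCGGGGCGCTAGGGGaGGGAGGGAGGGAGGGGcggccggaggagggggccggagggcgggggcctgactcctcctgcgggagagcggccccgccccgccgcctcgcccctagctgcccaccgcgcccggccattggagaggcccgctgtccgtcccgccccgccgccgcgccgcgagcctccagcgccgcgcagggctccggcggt
DKK1: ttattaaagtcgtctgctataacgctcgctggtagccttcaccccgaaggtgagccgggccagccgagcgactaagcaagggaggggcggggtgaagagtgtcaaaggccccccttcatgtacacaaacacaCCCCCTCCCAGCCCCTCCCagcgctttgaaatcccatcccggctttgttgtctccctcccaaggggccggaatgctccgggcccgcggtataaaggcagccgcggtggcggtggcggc

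CTNNBIP1, a gene of 1.41 TPM, held C runs of 29 and 25 bases, which begin 159 and 129 bases before its start. TLE1, the highest member, held a C run of 25 bases that begins 124 bases before its start. That run reaches 4 tracts only because an unbroken stretch of C counts as more than 1. TCF7L1 held C runs of 33 and 26 bases beginning 49 and 12 bases before the start, the latter crossing it and shown in part, and FZD4 held G runs of 29 and 16 bases beginning 220 and 190 bases before it. Genes with and without a run both included high and medium members, and the 4 low members all had a run, beside 22 of the 33 members with a window. The share of all low genes with a run is not given here, so this does not set the low members apart. The 22 genes with a run had a median of 1.41 TPM and 13 of them were expressed. The 11 without a run had a median of 26.4 TPM and 8 were expressed. Over the expressed genes alone the medians were 12.2 TPM with a run and 30.2 TPM without. The groups also differed in the 3′ end, which was unshared for 10 of 22 and 4 of 11, and the part of this in the medians was not tested. In the DKK1 sequence the C run of 19 bases is followed after 4 bases by CTTTGAA, the letters of a TCF/LEF motif. Searched on both strands, CTTTGAA was in the window of DKK1 alone among members and in 4.43% of all windows, and CTTTGAT was in no member window and in 2.62% of all.

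Of the ligands, 2 of 5 had at least 1 TPM, and their summed level was low, 7.10 ± 0.199 TPM. WNT11, which acts mostly through β-catenin-independent branches, had 5.92, 6.18 and 5.13 TPM. WNT6, a canonical ligand of epithelia, had 1.03, 1.06 and 1.66 TPM from 8, 7 and 19 counts. WNT11 stood above WNT6 in 3 of 3 replicates, by a ratio of 4.89 ± 1.56. WNT5A, the typical non-canonical ligand, had 0, 2 and 2 counts, below what 3 counts allow, and its end was shared. WNT3 and WNT5B had 0 counts in every replicate. The end of WNT3 was unshared and that of WNT5B was shared.

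The route of Wnt proteins out of the cell was represented by WLS, the carrier that brings them to the surface. WLS had 40.5, 48.3 and 41.9 TPM (43.6 ± 4.18), a high gene in every replicate. Its counts were split over 8 of 14 listed transcripts, and the leading one, which is not the reference transcript, took 63.1% of them and alone had a mean of 26.7 TPM. PORCN, the acyltransferase that attaches the lipid, had 0 counts, with a shared end.

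The Frizzled receptors, which bind Wnt at a cysteine-rich extracellular domain, could be ordered free of choices between transcripts, since each of the 6 detected members has 1 listed transcript. FZD2 (chr17:44557484-44561262) had 49.9, 58.3 and 51.1 TPM. FZD7 had 37.5, 38.3 and 31.4 TPM. FZD8 had 33.9, 37.0 and 21.3 TPM. These 3 receptors were in the high category, also in each replicate taken alone. FZD9, a receptor outside the 47 genes that was named after its values were seen, had 26.4, 31.5 and 8.38 TPM, also on 1 transcript, between FZD8 and FZD5 by mean and below FZD5 in replicate 3. FZD5 had 14.3, 16.3 and 9.80 TPM. FZD4, also the receptor for the ligand Norrin, had 11.7, 11.4 and 13.4 TPM. FZD1 had 8.69, 8.13 and 8.07 TPM. FZD2 exceeded FZD7 by a ratio of 1.49 ± 0.150 and among members FZD8 exceeded FZD5 by 2.27 ± 0.0944, in 3 of 3 replicates with ranges that did not overlap. In CPM the ratios were 1.46 ± 0.147 and 1.30 ± 0.0540, also in 3 of 3. The transcripts of FZD8 and FZD5 have 4030 and 7039 bases, so the size of the second ratio depends on the division by length. FZD7 and FZD8 overlapped in range (ratio 1.21 ± 0.236), and FZD5 and FZD4 changed order in replicate 3 (ratio 1.13 ± 0.361), so neither pair differed beyond its spread. FZD4 stood above FZD1 by 1.47 ± 0.172 in 3 of 3. FZD2 held 34.7% ± 2.93 of the summed level of the 8 Frizzled members, 154 ± 17.2 TPM, and 30.7% ± 4.37 once FZD9 and FZD10 were added. FZD3 and FZD6 had 0 counts, and both have several listed transcripts with a shared end.

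Of the co-receptors, LRP6 had 7.03, 12.1 and 6.44 TPM (8.53 ± 3.12). The reference transcript took 98.0% of its counts but less of its TPM, 6.02, 8.52 and 3.33, since a retained-intron transcript of 435 bases gave the rest from 2, 6 and 9 counts. LRP5 had 0 counts, with a shared end. The LRP family was thus seen through LRP6 alone, at a level near that of FZD1, from which it did not differ beyond the spread.

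Receptor turnover is run by ZNRF3 and RNF43, membrane E3 ligases that remove Frizzled from the surface and are themselves held back by R-spondin with LGR receptors. ZNRF3 had 11.4, 12.3 and 6.83 TPM. RNF43 had 6.08, 6.30 and 4.65 TPM, all from 1 transcript that is not the reference one, and 14.7% of its 3′ window lies opposite TSPOAP1-AS1. ZNRF3 exceeded RNF43 in 3 of 3 replicates (ratio 1.76 ± 0.260). LGR4 and LGR5 had 0 counts, both with shared ends, so the ligases were detected and their negative regulators were not detectable.

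Dishevelled proteins relay the signal from Frizzled to Axin, and they formed a high group with a summed 149.6 ± 41.4 TPM. DVL2 (chr17:7225342-7234517) had 105, 119 and 66.6 TPM (96.8 ± 27.0). DVL3 had 59.1, 63.1 and 36.3 TPM (52.8 ± 14.5). Both were high in every replicate, and DVL2 held 64.7% ± 0.641 of the family. That lead came from length: counts were 1409, 1333 and 1285 for DVL2 and 1412, 1275 and 1275 for DVL3, on leading transcripts of 2989 and 5269 bases, and in CPM the share of DVL2 was 50.4%. Since reads come from 3′ ends, whether division by length is apt here was not tested. DVL1 had 0 counts, with a shared end of which 12.3% lies opposite TAS1R3.

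In the destruction complex the kinases CSNK1A1 and GSK3B were high, and GSK3A and the scaffolds APC, AXIN1 and AXIN2 had few counts or none. CSNK1A1, casein kinase 1α, which places the priming phosphate on β-catenin, had 46.8, 52.2 and 26.8 TPM. GSK3B, which phosphorylates the residues that target β-catenin for degradation, had 33.4, 35.8 and 19.6 TPM. Both were in the high category by mean although their ends were shared, GSK3B being medium in replicate 3 alone. CSNK1A1 also has a closely similar retrocopy, CSNK1A1L, so its level is uncertain. For CSNK1A1 90.6% and for GSK3B 99.9% of counts fell on a leading transcript, which alone gave CSNK1A1 26.5 TPM. GSK3A, the close relative of GSK3B, had 0.994, 1.94 and 1.63 TPM from 5, 8 and 13 counts, and GSK3B held 94.8% ± 2.41 of the pair. A retained-intron transcript of 761 bases gave 0.869, 1.71 and 1.38 TPM of GSK3A from 3, 5 and 7 counts. The end of GSK3A was shared, as was that of GSK3B. APC, the tumour suppressor that scaffolds the complex, had 3.28, 2.00 and 3.19 TPM from 56, 35 and 63 counts. Most of that TPM, 2.36, 1.29 and 2.60, came from a retained-intron transcript of 1212 bases with 13, 6 and 21 counts. On the transcript with the most counts APC had 0.706 TPM, under the threshold of 1 TPM. AXIN1, the limiting scaffold of the complex, had 0, 0 and 1 counts, and AXIN2, a classical target of the pathway, had 0 counts in every replicate. The ends of both Axin genes were shared, so 0 counts of AXIN2 are no reading of pathway activity.

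CTNNB1 (chr3:41194741-41260096), which encodes β-catenin itself, was close to the limit of these tables. It had 4, 6 and 6 counts (upper limits of the 95% Poisson intervals 10.2, 13.1 and 13.1), or 0.767, 0.331 and 0.684 TPM. The gene has 56 listed transcripts, its reference 3′ end lay in 1 transcript for 0% of its bases, and counts fell on 2 transcripts, led by one with a retained intron. These counts are thus no measure of the amount of β-catenin messenger RNA in the cells.

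The coactivators that join β-catenin in the nucleus have unshared ends and were counted at high levels. PYGO2 (chr1:154957026-154963853), a PHD-finger protein that binds methylated histone H3, had 107, 109 and 69.1 TPM (95.0 ± 22.5). BCL9, the adaptor between β-catenin and Pygopus, had 36.3, 38.1 and 20.2 TPM. TNIK, a kinase that phosphorylates TCF7L2, had 32.9, 31.2 and 15.3 TPM, high by its mean, and medium in replicate 3 alone and in the mean without replicate 1 (23.2 TPM). A transcript of 750 bases gave 19.1, 17.4 and 6.20 TPM of this from 65, 50 and 31 counts, and the leading transcript, with 92.3% of counts, had a mean of 12.2 TPM, a medium level. PYGO2 and DVL2 did not differ beyond their spread (ratio 0.992 ± 0.0652), whereas BCL9 stood below PYGO2 in 3 of 3 replicates at 0.327 ± 0.0306 of its level. BCL9L, the paralog of BCL9, had 0 counts although its end was unshared. Its reference transcript was not among the listed ones and its whole 3′ window lies opposite CXCR5.

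Among TCF/LEF factors, which carry β-catenin to DNA, TCF7L1 stood alone. TCF7L1 (chr2:85133392-85310387), known mainly as a repressor in stem cells, had 41.1, 43.2 and 30.8 TPM (38.4 ± 6.63) and held 94.3% ± 1.80 of the family. It is also the only one of the 4 with an unshared 3′ end. TCF7L2 had 1.29, 1.27 and 1.65 TPM from 4, 3 and 8 counts. LEF1 had 2.09, 0.436 and 0 TPM from 5, 1 and 0 counts, with its mean of 0.842 set by replicate 1. Its mean was 1.05 TPM without replicate 2 and 1.26 TPM without replicate 3, both in the low category, and 0.218 TPM without replicate 1. TCF7 had 1, 4 and 1 counts. These 3 genes have 21 to 26 listed transcripts each, so an order among TCF/LEF factors cannot be read from these levels.

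The nuclear inhibitors spanned the whole range. TLE1 (chr9:81583683-81689547), a Groucho corepressor that TCF factors hold when β-catenin is away, had 190.4, 230.3 and 113 TPM (178 ± 59.9), above 95.0% of all expressed genes. It was the highest member in each replicate. The reference transcript took 84.8% of its counts and had a mean of 106 TPM, the rest coming mainly from a transcript of 1115 bases. TLE3, its paralog, had 5, 2 and 5 counts with a shared end, so TLE1 held 99.9% ± 0.0368 of the pair. With TLE2, TLE4 and TLE5, which are not among the 47 genes, its share was 77.5% ± 14.8, owing to TLE4. CTNNBIP1 (chr1:9848276-9910336), also named ICAT, which binds β-catenin and keeps TCF from it, had 1.25, 1.13 and 1.85 TPM (1.41 ± 0.385) from 17, 13 and 37 counts. It was in the low category in every replicate, above 9.51% of expressed genes, far below TLE1. Its end was unshared, all counts lay on its reference transcript, and 49.7% of its 3′ window lies opposite an unnamed gene. Whether counting used strand is not given in the sources used here, so reads of the opposite gene cannot be told apart from its own.

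Of the other inhibitors, DKK1 and NKD1 were medium. DKK1, a secreted protein that blocks LRP6 and is itself a target of the pathway, had 5.37, 6.94 and 3.41 TPM. NKD1, a Dishevelled-binding feedback inhibitor, had 4.64, 5.59 and 2.60 TPM. DKK1 lay above NKD1 in 3 of 3 replicates in TPM (ratio 1.24 ± 0.0755) and below it in 3 of 3 in CPM (0.131 ± 0.00800), because the transcript of NKD1 has 17039 bases and that of DKK1 has 1805. Their order is therefore a matter of scale. DKK3 had 2, 0 and 0 counts and SFRP1, a decoy receptor for Wnt, had 4, 0 and 2.

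CCND1 (chr11:69641156-69654474), cyclin D1, which drives entry into S phase and is a known target of β-catenin, was the only member grouped by role as a target. AXIN2 and DKK1, also targets, were grouped by other roles. It had 27.7, 29.5 and 9.43 TPM from 542, 487 and 271 counts (95% Poisson intervals 497 to 590, 445 to 532 and 240 to 305.3), a difference of replicate 3 far beyond counting error. Its mean of 22.2 ± 11.1 TPM put it in the medium category, and without replicate 3 its mean was 28.6 TPM, in the high category. Of its 3′ window 78.7% lies opposite LTO1, so with strand unknown the reads may belong in part to that gene.

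**Figure D3:**
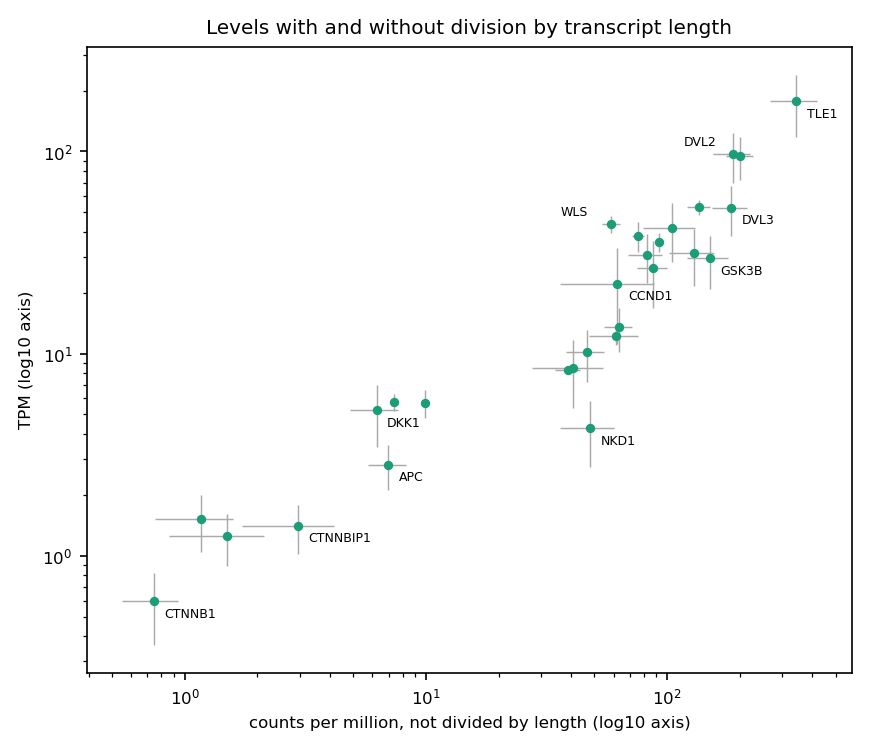
Each point is 1 of the 28 pathway genes with more than 3 counts in every replicate, with its mean CPM (not divided by length) on a log10 axis against its mean TPM on a log10 axis and bars of 1 SD (n = 3). Genes with long transcripts such as NKD1 fall below the general trend and genes with short ones such as WLS above it, and DVL2 and DVL3 share nearly the same CPM at 96.8 and 52.8 TPM.

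Replicate 3 was compared with the others because of its mitochondrial share. Of the 25 members with at least 10 counts in every replicate, 20 had their lowest TPM there and 2 (FZD4 and CTNNBIP1) their highest. Once TPM was rescaled over the remaining genes without the mitochondrial ones, 14 were lowest and 10 highest in replicate 3, and the summed level of the members was 1202, 1213 and 1119 TPM. The shares of all genes lowest or highest in replicate 3 are not given here, so these counts do not set the members apart. The median log2 ratio of replicate 3 to the mean of the others was -0.65 in TPM and -0.11 after rescaling over the 25 members, beside -0.47 and 0.07 over all 9418 nuclear genes with as many counts. Rescaling multiplies all nuclear genes of a library by 1 factor, so by construction it moves both medians by nearly the same amount. The median of the members lay below that of all genes before and after it, and the reason was not tested.

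Single members still differed after rescaling. In replicate 3 CTNNBIP1 was 2.25-fold, APC 1.73-fold and FZD4 1.69-fold the mean of the others. These 3 of 25 were more than 1.5-fold higher, beside 19.3% of all nuclear genes. The 95% Poisson intervals of the counts overlapped between replicates 1 and 3 for CTNNBIP1 (9.90 to 27.2 and 26.1 to 51.0) and for APC (42.3 to 72.7 and 48.4 to 80.6), and did not for FZD4. Most of the TPM of APC came from a retained-intron transcript with 13, 6 and 21 counts. On its reference transcript APC had 0.824, 0.707 and 0.588 TPM before rescaling, lowest in replicate 3. CCND1, at 0.478-fold, was the only member more than 1.5-fold lower, beside 9.57% of all genes. The receptors FZD1, FZD2, FZD4 and FZD7, WLS, WNT11 and the nuclear factor TCF7L1 lay above 1, and the receptors FZD5 and FZD8, the nuclear factors PYGO2, BCL9, TNIK and TLE1 and the relays DVL2 and DVL3 lay below 1. With 1 library showing the difference, its source in culture or library cannot be told apart. The median coefficient of variation of TPM was 27.3% over the 25 members and 25.3% over all such genes. The median SD of log2(TPM + 1) was 0.41 over these members and 0.33 over all such genes.

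**Figure D4:**
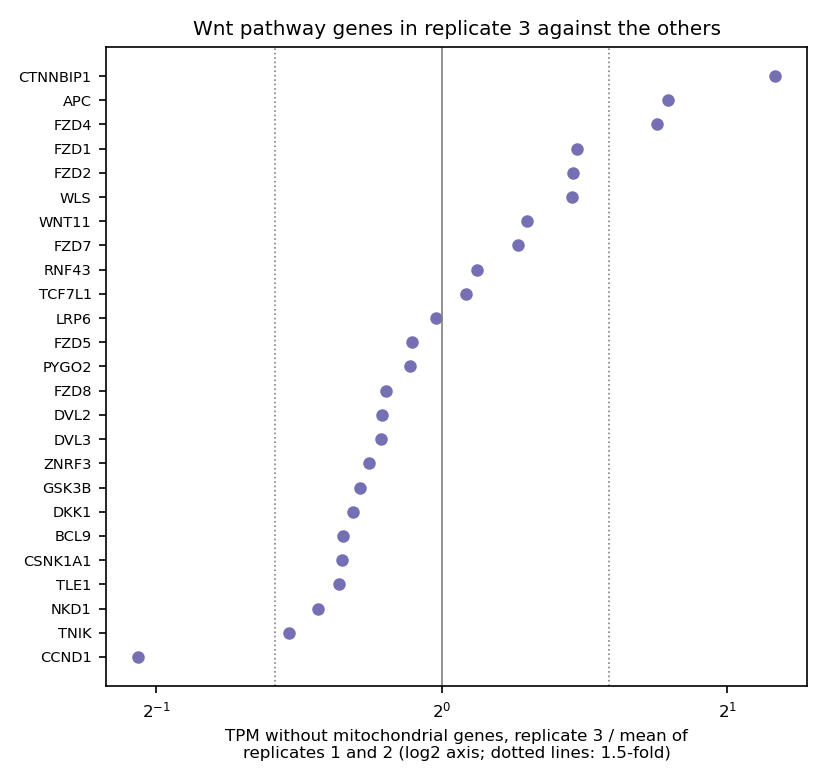
Each point is 1 of 25 pathway genes, placed by its TPM without mitochondrial genes in replicate 3 divided by the mean of replicates 1 and 2, on a log2 axis with dotted lines at 1.5-fold either way. CTNNBIP1, APC and FZD4 lie beyond the line on the right, CCND1 alone beyond the line on the left, and the other 21 between them.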

How the data were processed

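Total RNA of HEK293T cells was made into 3 libraries with the QuantSeq 3′ mRNA-seq kit. The labels name the material genomic DNA, whereas their protocol and the methods describe RNA. The submitters' processing notes name Trimmomatic 0.38.0, HISAT2 2.2.1, featureCounts 2.2.1 and hg38. The annotation release, the strand setting and the treatment of reads on several transcripts are not given in the sources used here. The authors deposited a table for each library with whole-number counts of each transcript, not normalized. Its TPM column, also deposited, equals the count over the transcript length, scaled to 1000000 in a library, as a recalculation showed. Because reads come from 3′ ends, this division lowers long transcripts.

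Of 247541 transcripts, 223558 matched GENCODE v44 without their version, in 61193 genes; the 23983 others held at most 0.166% of counts. TPM was summed per gene, and a mean of at least 1 TPM counted as expressed. A 3′ end was called unshared where at least 99.5% of the final 300 exonic bases of the canonical transcript (called reference transcript here) lay in 1 listed transcript, and shared under 2.5%. These limits were chosen after the values were seen. Libraries held 6262175 to 8521624 counts, and intervals and limits cover counting error only. Work was done in Python 3.11.15 with pandas 2.3.3 and scipy 1.17.1, and the categories and the search for runs were tested on simulated data. Values in every replicate are given for the leading 3 genes of each role by mean TPM, for high genes, for pairs whose order is described and for CTNNBIP1, and counts for genes with shared ends or 0 counts. Other pathway genes are named where among the 5 highest of their list. The members, role groups and lists were chosen with earlier results of these data known. The alternatives were other thresholds and quartiles, CPM, TPM without mitochondrial genes, the transcript with the most counts, another pseudocount, other run rules and leaving out each replicate. i-motif and G-quadruplex maps were not analysed here.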

Additional observations from a re-analysis of the deposited data

How the results depend on the processing

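No paired analysis was possible because the series holds 1 condition. Among the alternatives run, leaving out each replicate in turn gave 28 to 29 expressed members, 28 to 30 above 3 counts in every replicate, 12 to 14 high, 10 to 12 medium, 4 to 5 low and 18 to 19 not expressed, with a summed level of 776 to 977 TPM. The median SD of log2(TPM + 1) over replicates was 0.16 over all members. It was 0.0552 to 0.16 with a replicate left out, the lowest without replicate 3, 0.35 with a pseudocount of 0.1 and 0.41 over members with at least 10 counts in every replicate. A threshold of 10 TPM left 17 expressed members, and counting any TPM above 0 as expressed left 11 as not expressed. The 13 high members became 8 with quartiles over protein-coding genes, 18 in CPM and 19 with any TPM above 0 counted as expressed. The median of 2.82 TPM became 4.11 and the sum of 859 became 1178 without mitochondrial genes, and the median was 17.9 over members above 3 counts in every replicate.

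In CPM, without division by length, the median was 6.25 and the sum 2235, 7 members were medium and 2 low, and the shares of the leading paralogs were 28.6% for FZD2, 50.4% for DVL2, 99.2% for GSK3B, 98.4% for TCF7L1 and 99.8% for TLE1. Taking for each gene the transcript with the most counts put TLE1 at 99.9% of the pair with TLE3, a shift beyond the SD in the next digit, and changed 5 of 28 named levels (WLS, APC, CSNK1A1, TNIK and TLE1) by more than their SD. With relatives outside the 47 genes added, an alternative chosen after the data were seen, the shares were 30.7% for FZD2 and 77.5% for TLE1. Tracts of at least 2 bases put runs in 45 of 46 member windows. The cause of these shifts was not tested beyond what each alternative changes by construction. Leaving out a replicate changed 0 of 40 single levels and sums by more than their SD. With 3 replicates this follows by construction, so it is no sign of stability. No order can be given among the 19 members with at most 3 counts in some library. Most of them have a shared 3′ end, and the part of depth in their low counts was not tested.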

Other observations

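Outside the 47 genes, a list of 68 further genes of the pathway was followed, of which 27 had at least 1 TPM and 14 had 0 counts, with a median of 0.620 TPM. Its 5 highest genes were general kinases, phosphatases and coactivators or a corepressor. PPP2CA, a catalytic subunit of the phosphatase PP2A, had 271, 294 and 167 TPM. CSNK1G2, a membrane-bound casein kinase that phosphorylates LRP6, had 276, 280.4 and 154 TPM. CSNK1E, casein kinase 1ε, which acts on Dishevelled, had 228, 238 and 194 TPM with a shared 3′ end. All 3 lay above TLE1 by mean. EP300, an acetyltransferase that works with β-catenin, had 94.5, 104 and 45.3 TPM, its lowest value in replicate 3 as for most members. TLE4, a relative of TLE1, had 51.2, 21.1 and 68.2 TPM, a spread of 23.8 TPM (SD, n = 3) around 46.8, and its end was shared.

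Of the 14 further ligands in that list 2 had at least 1 TPM, beside 38.2% of protein-coding genes, and 5 had more than 3 counts in every replicate. Their summed level was 10.8 ± 1.77 TPM. The 2 were WNT3A with 3.68, 4.18 and 2.25 TPM and WNT9A with 4.35, 4.75 and 3.63 TPM, both medium and named after their values were seen. More than 3 counts in every replicate were found for 24 of 36 further genes with an unshared 3′ end and for 7 of 28 with a shared one.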
